A study of Mus musculus with 9 samples.

Results

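The genes described here are Lin28a, Lin28b, Hmga1, Hmga2, Igf2bp1, Igf2bp2, Igf2bp3, Mycn and Trim71, a group of RNA-binding proteins, chromatin proteins and 1 transcription factor that many embryonic tissues and tumours share and that most adult tissues silence. They were taken by symbol and are 9 of 45808 gene symbols in the count table. They were compared in mK4 cells, a mouse line from embryonic kidney mesenchyme, grown with 10% serum. The control group (n = 5) is wildtype for Foxd2 and went through Cas9 treatment with a guide that targets no gene. The mutant group (n = 4) is F7, a CRISPR clone in which both Foxd2 copies carry a frameshift, so all mutant libraries come from 1 clone, and effects of the genotype and of the clone cannot be told apart. The product of Foxd2 is a forkhead protein, and the question of the series is how losing it relates to renal hypoplasia and dysplasia.

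These genes are best known through the microRNA let-7. LIN28A and LIN28B bind the let-7 precursor and block its maturation, and mature let-7 in turn represses Lin28, Hmga2, Trim71 and the Igf2bp messengers by pairing with their 3′ UTRs. HMGA1 and HMGA2 are AT-hook chromatin proteins that bend DNA. IGF2BP1, IGF2BP2 and IGF2BP3 bind messengers, Igf2 among them, and affect their stability and translation. MYCN is a MYC-family transcription factor of the early nephron progenitor and of Wilms tumour, and TRIM71 is an RNA-binding TRIM-NHL protein.

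The shared let-7 pairing is shown first, because it is the feature that links most of the 9 genes. Of 11 distinct mature let-7 and miR-98 sequences in RefSeq (GRCm38.p6), 10 carry the same seed, bases 2 to 8, and let-7j is the exception. The mature sequences of let-7b and let-7c, whose hairpins are described below, differ outside the seed, which is in capitals:
mmu-let-7b-5p: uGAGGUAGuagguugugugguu
mmu-let-7c-5p: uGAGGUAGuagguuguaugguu

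The complement of that seed, CTACCTC, was searched on the transcript strand in the 3′ UTR of the longest coding transcript of each gene (GENCODE M21, mm10). It was found in 8 of the 9 genes, 21 times in all: 4 times each in Lin28b, Hmga2, Igf2bp1 and Trim71, 2 times in Lin28a, and 1 time each in Hmga1, Igf2bp2 and Igf2bp3. Mycn held none. Among all 20646 UTRs searched, 9.1% held it, and among UTRs within 20% of a gene's own UTR in length the share was 15.9% for Hmga2, 24.1% for Lin28b, 29.4% for Trim71 and 33.6% for Igf2bp1, the genes with 4 matches. For the other 5 genes it was between 6.5 and 14.5%. The matches of the genes with a measurable level are printed with 15 bases before and 1 base after, the match in capitals. A match describes letters and does not show binding:
Hmga2 site 1 (chr10:120364224-120364246, minus): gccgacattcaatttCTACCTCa
Hmga2 site 2 (chr10:120362987-120363009, minus): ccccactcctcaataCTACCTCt
Hmga2 site 3 (chr10:120362549-120362571, minus): ctgatttgcaaggaaCTACCTCc
Hmga2 site 4 (chr10:120361691-120361713, minus): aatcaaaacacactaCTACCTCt
Hmga1 site (chr17:27563277-27563299, plus): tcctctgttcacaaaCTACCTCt
Igf2bp2 site (chr16:22059473-22059495, minus): acacacaaataaaagCTACCTCa
Igf2bp3 site (chr6:49086787-49086809, minus): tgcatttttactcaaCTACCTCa

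Library totals ran from 10526591 to 16032175 counts in control, were 14024859 and 11782243 in F7 replicates 1 and 2, and were 6041556 and 6590712 in F7 replicates 3 and 4. The column headers of F7 replicates 3 and 4 in the raw table read mk3 in place of mk4, so results are also given with either pair of F7 libraries alone. Foxd2 itself was higher in the mutant, at 18.25 ± 3.78 CPM (counts scaled to library size, SD, n = 4) against 3.72 ± 0.536 (SD, n = 5), and gene counts do not show the frameshift. Of 9 kidney mesenchyme markers, 5 passed 1 CPM in some library, whereas Six2 and Wt1 had no read. The summed level of that list was 516 to 560 CPM in control and 361 to 427 CPM in F7, and its part in the results below was not tested. None of 8 pluripotency markers passed 1 CPM, with sums of 0 to 0.757 CPM in control and 0.0856 to 0.764 CPM in F7. A list of 4 neural markers summed to 428 to 535 CPM in control and 445 to 554 CPM in F7, although Sox1 and Elavl3 stayed under 1 CPM. Whether replicates are separate cultures is not in the labels, so a p-value reflects only the variation among these libraries, part of which may be technical.

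The genes fell into separate patterns: Hmga1, Hmga2 and Igf2bp2 were higher in F7, Mycn was lower, and the LIN28 side of the circuit was almost silent in both groups. In bulk libraries, fewer cells that express a gene and less RNA per cell cannot be told apart. Genes were tested with edgeR over 14730 genes and called at a Benjamini-Hochberg adjusted p under 0.05. Of the 9 genes, 5 had enough reads to be tested, of which 3 were called higher and 1 lower, and Igf2bp3 was not called. Over all tested genes 35.3% were called, 17.4% higher and 17.9% lower. Over all tested genes 13.9% had every F7 library above every control library and 13.7% had every F7 library below, 27.6% together. Hmga1, Hmga2 and Igf2bp2 were of the first kind and Mycn of the second. Igf2bp2 entered the test only through its F7 libraries, and Mycn and Igf2bp3 only through their control libraries, so the number of calls supports no statement about the group. With F7 replicates 1 and 2 alone 26.7% of tested genes were called and with replicates 3 and 4 alone 14.0%, and of the 9 genes 4 and 2 were called.

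**Figure D1:**
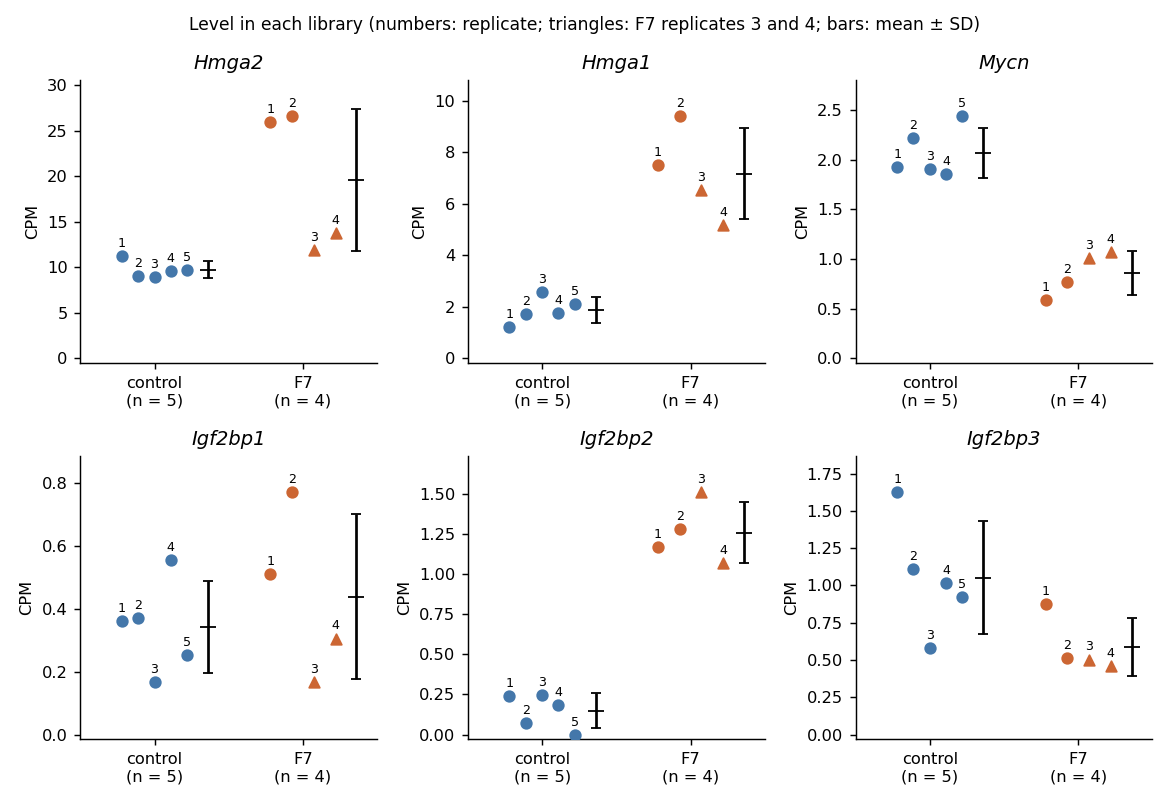
Level in CPM (y axes, linear, a separate scale in each panel) of 6 genes in the 5 control and 4 F7 libraries, with the replicate number above each point and the mean ± SD beside each group. Hmga2 in F7 lies at 26.0 and 26.6 in replicates 1 and 2 and at 11.9 and 13.7 in replicates 3 and 4 (triangles), whereas all 4 F7 libraries are well above control for Hmga1 and Igf2bp2.

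Lin28a and Lin28b, the blockers of let-7 maturation, were at or next to nothing in every library. Lin28a (ENSMUSG00000050966.9, chr4:134003330-134018841, minus) had 0 reads among 102578105 counts, which allows a level of up to 0.0468 CPM in control and 0.078 CPM in F7, counting error only. Lin28b (ENSMUSG00000063804.8, chr10:45376620-45486395, minus) had 1 read in control, in replicate 2, and 1 read in F7, also in replicate 2. A difference between the groups was not detectable at this depth.

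Trim71, a let-7 target that acts in early embryos, was also near the limit of detection. Trim71 (ENSMUSG00000079259.2, chr9:114507133-114564369, minus) had 3, 0, 1, 6 and 0 reads in control replicates 1 to 5, and 1, 0, 0 and 0 in F7. Its 10 control reads and 1 F7 read give a control over F7 ratio of 5.84 with a 95% exact binomial interval of 0.83 to 253, which includes 1 and covers counting error only. In the authors' deposited table, which also used an F7 column not analysed here, the log2 fold change was -2.29 with an adjusted p of 0.411.

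Hmga2, the HMGA paralog that declines with development in many tissues, had the highest mean level per length of the 9, as counted. Hmga2 (ENSMUSG00000056758.14, chr10:120361275-120476469, minus) was at 11.25, 9.02, 8.95, 9.63 and 9.67 CPM in control. In F7 it was at 26.0, 26.6, 11.9 and 13.7 CPM. All F7 libraries lay above all control libraries, but replicates 3 and 4 only just. The mean went from 9.70 ± 0.927 (SD, n = 5) to 19.57 ± 7.82 (SD, n = 4), which on the log2 scale is 1.05 (SE 0.22, edgeR adjusted p = 0.00366), which is 2.08-fold. With F7 replicates 1 and 2 alone the log2 fold change was 1.44 (edgeR adjusted p = 1.33e-05), and with replicates 3 and 4 alone it was 0.41 (edgeR adjusted p = 0.094), no longer called. Antisense genes 1700006J14Rik and 9230105E05Rik overlap Hmga2, with at most 15 reads each in a library. Whether counting used strand is not given in the sources used here.

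Hmga1, the paralog that stays on in many proliferating cells, rose in all 4 F7 libraries. Hmga1 (ENSMUSG00000046711.16, chr17:27556497-27563674, plus) was at 1.20, 1.70, 2.57, 1.76 and 2.10 CPM in control and at 7.52, 9.41, 6.54 and 5.19 CPM in F7. The lowest F7 library was above the highest control library. The mean rose from 1.87 ± 0.507 (SD, n = 5) to 7.17 ± 1.78 CPM (SD, n = 4), which on the log2 scale is 1.98 (SE 0.23, edgeR adjusted p = 2.23e-05), or 3.95-fold. It was called in either pair of F7 libraries alone, at 2.20 with replicates 1 and 2 and 1.66 with replicates 3 and 4. AI413582 overlaps Hmga1 on the opposite strand and had 43 to 91 reads a library. How the authors' counting treated reads that match more than 1 place in the genome is not given in the sources used here, so the Hmga1 level is uncertain to that extent.

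Igf2bp2, the IGF2BP paralog that persists most widely in adult tissues, had the largest log2 fold change of the called genes but few reads. Igf2bp2 (ENSMUSG00000033581.17, chr16:22059009-22163299, minus) had 4, 1, 3, 2 and 0 reads in control and 16, 15, 9 and 7 in F7. In CPM these are 0.241, 0.0739, 0.249, 0.185 and 0 in control, and 1.17, 1.28, 1.51 and 1.07 in F7. Every F7 library was at least at 1.07 CPM and no control library passed 0.249. The log2 fold change was 2.93 (SE 0.45, edgeR adjusted p = 0.000281), and the F7 over control ratio of summed reads was 8.05 with a 95% exact binomial interval of 4.02 to 17.9. It was called in either pair of F7 libraries alone, at 2.93 with replicates 1 and 2 and 2.98 with replicates 3 and 4. Both pairs were tested against the same control libraries. Igf2bp2 entered the main test only through its F7 libraries, where it is high.

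Igf2bp3 and Igf2bp1, the more strictly fetal IGF2BP paralogs, did not pass the test or could not be tested. Igf2bp3 (ENSMUSG00000029814.10, chr6:49085223-49214957, minus) was at 1.62, 1.11, 0.580, 1.02 and 0.925 CPM in control and at 0.876, 0.513, 0.503 and 0.458 CPM in F7. Control replicate 3 lay among the F7 values, and 3 of 4 F7 libraries lay below all controls. The log2 fold change was -0.78 (SE 0.37, edgeR adjusted p = 0.119), and without control replicate 3 it was -0.93 (edgeR adjusted p = 0.0471), then called. The 50 nearest tested genes had a median of -0.29, and Malsu1 overlaps on the opposite strand. Igf2bp1 (ENSMUSG00000013415.9, chr11:95957163-96005940, minus) had 6, 5, 2, 6 and 3 reads in control and 7, 9, 1 and 2 in F7. Its ratio of summed reads, F7 over control, was 1.48 with a 95% exact binomial interval of 0.757 to 2.86, so no difference was detectable at this depth.

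Mycn, the MYC paralog of early progenitors, was lower in F7. Mycn (ENSMUSG00000037169.15, chr12:12936093-12941914, minus) was at 1.93, 2.22, 1.91, 1.85 and 2.44 CPM in control and at 0.584, 0.770, 1.01 and 1.07 CPM in F7. The groups did not overlap, and F7 replicates 3 and 4 were the nearest to control. The mean fell from 2.07 ± 0.252 (SD, n = 5) to 0.858 ± 0.223 CPM (SD, n = 4), which on the log2 scale is -1.34 (SE 0.27, edgeR adjusted p = 0.00176). With F7 replicates 3 and 4 alone it was -0.98 (edgeR adjusted p = 0.0921), no longer called. Mycn entered the main test only through its control libraries, where it is high.

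**Figure D2:**
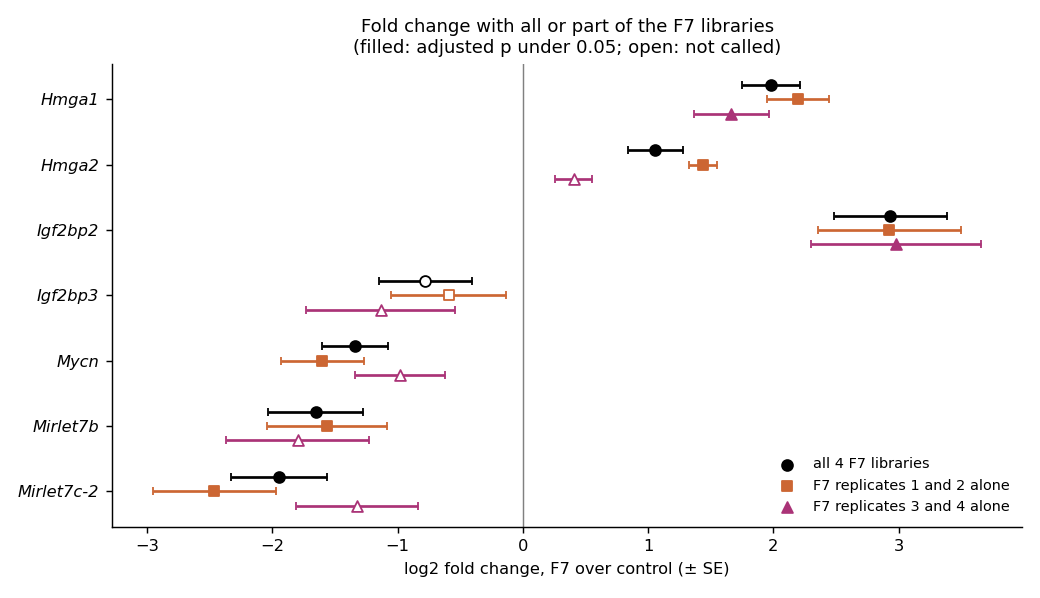
Log2 fold change of F7 over control with its SE (x axis) for the 5 tested genes and both tested let-7 hairpin rows, from all 4 F7 libraries (circles), replicates 1 and 2 alone (squares) and replicates 3 and 4 alone (triangles). Filled symbols are called at an adjusted p under 0.05. Hmga2 moves from 1.44 to 0.41 between the pairs, whereas Igf2bp2 stays at 2.93 and 2.98.

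Divided by transcript length, the order of the levels changed between the groups in its middle and low part. In control the order was Hmga2 at 2.55 ± 0.243 CPM per kb (SD, n = 5), Hmga1 at 0.933 ± 0.253, Mycn at 0.773 ± 0.0942, Igf2bp3 at 0.242 ± 0.0869, Igf2bp1 at 0.0407 ± 0.0175, Igf2bp2 at 0.0384 ± 0.0279 and Trim71 at 0.0176 ± 0.0248, with both Lin28 genes last. The ranges over libraries overlapped between Hmga1 and Mycn and between each neighbouring pair from Igf2bp1 down. In F7 the order was Hmga2 at 5.14 ± 2.05 CPM per kb (SD, n = 4), Hmga1 at 3.58 ± 0.887, Igf2bp2 at 0.323 ± 0.0487, Mycn at 0.321 ± 0.0834, Igf2bp3 at 0.135 ± 0.0446 and Igf2bp1 at 0.0524 ± 0.0313. Hmga2 overlapped Hmga1 there, and Igf2bp2 overlapped Mycn. The place of Hmga1 in both orders carries the uncertainty of its level described above. All were low on the scale of the cell: per length, Hmga2 exceeded 21.0% of tested genes in control and 33.4% in F7.

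The makeup of the IGF2BP family differed between the groups. Of the summed level per length of its 3 genes, Igf2bp3 held 74.9% ± 10.4 (SD, n = 5) in control and 26.3% ± 6.56 (SD, n = 4) in F7. Igf2bp2 held 12.4% ± 11.0 in control and 63.6% ± 8.7 in F7, with ranges of 0 to 29.4% and 53.3 to 74.0% that did not overlap. Igf2bp1 held 12.7% ± 4.13 and 10.1% ± 5.47. In the HMGA family, Hmga1 held 26.8% ± 6.67 in control and 42.2% ± 6.54 in F7. Its lowest F7 library, at 35.5%, was close to the highest control library, at 35.3%. The shares are descriptions without a test, and those of the IGF2BP family rest on few reads. Those of the HMGA family depend on the Hmga1 level, which is uncertain as described above.

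**Figure D3:**
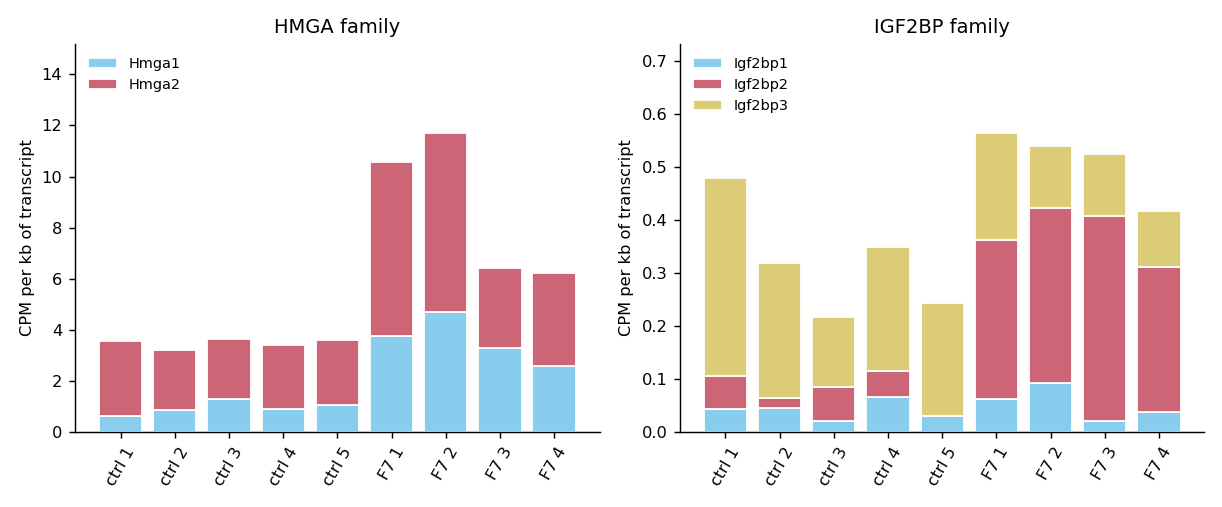
Summed level in CPM per kb of transcript (y axes, starting at 0) of the HMGA and IGF2BP genes in each control (ctrl) and F7 library, stacked by gene. The Igf2bp3 part is the largest in every control library, and the Igf2bp2 part is the largest in every F7 library. The HMGA stacks of F7 replicates 1 and 2 are the tallest.

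On the let-7 side, the precursor nuclease Dis3l2 had no read in F7. DIS3L2 is the exonuclease that degrades let-7 precursors tagged with uridines after LIN28 binding, and its human gene is mutated in Perlman syndrome, a fetal overgrowth disorder with Wilms tumour. Dis3l2 (ENSMUSG00000053333.15, chr1:86703808-87050095, plus) had 33, 21, 17, 29 and 18 reads in control and 0 in each of the 4 F7 libraries. The control level was 1.83 ± 0.527 CPM (SD, n = 5), and the F7 level was at least 23.0-fold lower, taking 3 counts over the whole F7 group as the floor. It was called by edgeR with all F7 libraries (adjusted p = 4.43e-05) and with replicates 3 and 4 alone (adjusted p = 0.00256). It entered the test only through its control libraries.

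Cops7b and Eif4e2, a gene on each side of Dis3l2, stayed near their control levels. They lie on the same strand as Dis3l2, at chr1:86582904-86609375 and chr1:87213914-87240488. Both were looked up after the Dis3l2 values were seen, and any gene nearer to Dis3l2 was not looked up by name. Cops7b was at 22.34 ± 1.74 CPM (SD, n = 5) in control and 25.21 ± 0.716 (SD, n = 4) in F7. Eif4e2 was at 67.6 ± 1.60 and 69.0 ± 3.05 CPM. Neither was called, with log2 fold changes of 0.17 and 0.03 (edgeR adjusted p = 0.107 and 0.703). For Cops7b, though, all 4 F7 libraries lay above all controls, as for 13.9% of tested genes.

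No gene of let-7 maturation and silencing was called higher. Of 20 genes listed, 19 were tested and 6 were called lower, or 31.6%. Over all tested genes 35.3% were called, 17.4% higher and 17.9% lower. The median log2 fold change of the list was -0.10 against -0.01 over all tested genes. The list median was the same with Dis3l2 at its bound, which could not move it, because Dis3l2 was the lowest value either way. Zswim8, a ubiquitin ligase subunit that drives target-directed miRNA decay, fell by 0.51 on the log2 scale (SE 0.08, edgeR adjusted p = 0.000186). Zcchc6, a terminal uridylyltransferase also called TUT7, fell by 0.34 (SE 0.07, edgeR adjusted p = 0.00314). Its paralog Zcchc11 (TUT4), Ago3 and Tnrc6b were the other calls. The processing nucleases Dicer1 and Drosha, picked after their values were seen, were not called, at -0.07 and 0.15. With F7 replicates 3 and 4 alone, Dis3l2 and Zswim8 were the genes called, or 10.5% against 14.0% over all genes tested with that pair.

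Reads at the let-7b and let-7c-2 hairpins were fewer in F7. The table holds 10 let-7 and miR-98 hairpin rows, described after their values were seen, and only Mirlet7b and Mirlet7c-2 could be tested. Both entered the test only through their control libraries, where they are high, so their calls were favoured by the filter. These rows count reads over hairpin loci and do not measure the mature miRNA. Mirlet7b was at 3.25, 3.03, 1.41, 2.04 and 1.43 CPM in control and at 0.511, 1.03, 0.839 and 0.458 CPM in F7. Mirlet7c-2 was at 2.41, 3.4, 1.41, 2.22 and 1.60 CPM in control and at 0.438, 0.342, 0.839 and 0.916 CPM in F7. All F7 libraries lay below all control libraries in both rows.

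Both hairpins lie in the lncRNA Lncppara on chromosome 15, which was not analysed here, so the pair is not independent. The log2 fold change was -1.66 for Mirlet7b (SE 0.38, edgeR adjusted p = 0.00453) and -1.95 for Mirlet7c-2 (SE 0.39, edgeR adjusted p = 0.00177). Neither was called with F7 replicates 3 and 4 alone, at -1.80 and -1.32 (edgeR adjusted p = 0.0587 and 0.0945). Of the untested rows, Mirlet7a-1 had 46 control reads and 30 F7 reads, an F7 over control ratio of 1.12 with a 95% exact binomial interval of 0.681 to 1.81. Genes looked up as hosts of other let-7 hairpins were also chosen after seeing the data, and 2 of the 6 tested were called lower. Over all tested genes 35.3% were called, 17.9% lower, so this count supports no statement about the hosts. Mir99ahg, the host of let-7c-1, was at -0.78 on the log2 scale (edgeR adjusted p = 0.0125), and Wdr82, the host of let-7g, was at -0.19 (edgeR adjusted p = 0.0226). Wdr82 lost its call in F7 replicates 3 and 4 by themselves (edgeR adjusted p = 0.185). Not called were 6720427I07Rik, the host of the let-7a-1, let-7f-1 and let-7d hairpins, at -0.13, 2610203C20Rik at -0.33, Huwe1 at -0.11 and Spaca6 at 0.01. In the annotation used here, 2610203C20Rik overlapped no let-7 hairpin, so its place as a host is not shown.

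**Figure D4:**
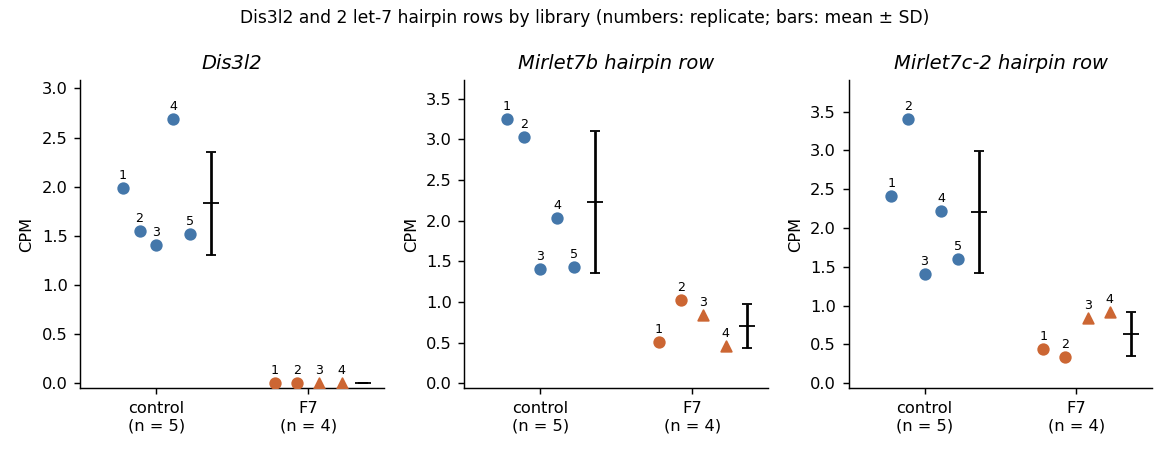
Level in CPM (y axes, linear from 0) of Dis3l2 and of both tested let-7 hairpin rows in each control and F7 library, with the mean ± SD beside each group. Dis3l2 is at 0 in all 4 F7 libraries, and both hairpin rows lie lower in every F7 library than in any control library.

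Described targets of let-7 were called in both directions. Of 29 listed, 27 were tested, 7 were called higher and 6 lower, or 48.1% against 35.3% over all tested genes, and the median log2 fold change was -0.07. Cdk6, a G1 cyclin-dependent kinase, rose from 41.1 ± 11.3 (SD, n = 5) to 87.3 ± 11.9 CPM (SD, n = 4), which on the log2 scale is 1.10 (SE 0.19, edgeR adjusted p = 0.00181). Cdc34, a ubiquitin-conjugating enzyme of the G1 to S transition, rose by 0.55 (SE 0.11, edgeR adjusted p = 0.00188). Irs2, an adaptor of the insulin and IGF receptors, fell by 1.12 on the log2 scale (SE 0.20, edgeR adjusted p = 0.002). The cyclins Ccnd1 and Ccnd2, picked after their values were seen, rose by 2.95 and 2.09 (edgeR adjusted p = 0.0031 and 0.0187). Only Cdk6 and Ccnd1 (higher) and Irs2 (lower), 3 of the 27, were called with F7 replicates 3 and 4 alone. That is 11.1% against 14.0% over all genes tested with that pair.

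In the MYC and MAX network, Mycl was called higher. Mycl, the paralog first found in lung cancer, had 4, 1, 2, 2 and 2 reads in control and 24, 27, 10 and 13 in F7. Every F7 library lay above every control library. The mean rose from 0.167 ± 0.06 (SD, n = 5) to 1.93 ± 0.284 CPM (SD, n = 4), which on the log2 scale is 3.44 (SE 0.34, edgeR adjusted p = 5.38e-06), and it was called with F7 replicates 3 and 4 alone at 3.36. Mycl entered the test only through its F7 libraries, where it is high. Of 11 tested genes in the list 1 was called higher and 4 lower, among them Mxd4 (-0.41) and Mlxip (-0.60), which is 45.5% called against 35.3% over all tested genes.

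Myc itself, singled out after its values were seen, split the F7 libraries. It was at 44.6, 40.8, 35.5, 59.5 and 79.8 CPM in control and at 105.6, 110.5, 38.9 and 41.7 CPM in F7. F7 replicates 1 and 2 lay above all controls and replicates 3 and 4 within the control range, the same pairs that differed for Hmga2. Its log2 fold change was 0.55 (SE 0.40, edgeR adjusted p = 0.327) and was not called. The fit with F7 replicates 1 and 2 alone gave 1.06 (edgeR adjusted p = 0.0232), which was called, and the fit with replicates 3 and 4 alone gave -0.36 (edgeR adjusted p = 0.467).

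Among fetal growth genes, the messenger that names the IGF2BP family was the one most reduced. Igf2 was at 680.3, 742.5, 677.5, 600.2 and 613.0 CPM in control and at 8.33, 9.41, 15.1 and 11.8 CPM in F7, where all libraries were far below control. Of 23 listed genes only 9 were tested, of which 1 was called higher and 4 lower, or 55.6% against 35.3% over all tested genes, with a median log2 fold change of -0.25. Cdkn1c, an imprinted inhibitor of the cell cycle, rose from 1.12 ± 0.299 (SD, n = 5) to 2.81 ± 0.53 CPM (SD, n = 4), and Mest, another imprinted gene, fell by 1.29 on the log2 scale (SE 0.33, edgeR adjusted p = 0.00849), having entered the test only through its control libraries. With F7 replicates 3 and 4 alone, Igf2 and Grb10 were the genes called, or 22.2% against 14.0% over all genes tested with that pair.

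Among the remaining relatives and partners of the 9 genes, calls went in both directions. Of 11 tested genes of HMGB, HMGN and other HMG chromatin proteins, 2 were called higher (Hmgb3 at 0.36 and Hmgn1 at 0.24) and 3 lower, Hmgxb4 at -0.40 among them. That is 45.5% called against 35.3% over all tested genes. Of 20 tested IGF2BP partners and messenger-binding proteins, 2 were called higher and 2 lower, or 20%: Ythdf1, an m6A reader, rose by 0.57 (SE 0.06, edgeR adjusted p = 4.55e-06), whereas Fmr1 fell by 0.32 beside Igf2. Of 9 tested TRIM-NHL and cold shock genes, 2 were called higher and 3 lower, or 55.6%. Trim2, a TRIM-NHL relative of Trim71, fell by 0.92 on the log2 scale (SE 0.08, edgeR adjusted p = 1.57e-06). Ybx3 and Csdc2, which share the cold shock domain of LIN28, were at 0.58 and -0.76, both called. Hmgb3, Hmgn1, Fmr1 and Ybx3 lost their calls in F7 replicates 3 and 4 by themselves (edgeR adjusted p = 0.114, 0.121, 0.0968 and 0.0654).

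Inhibitors of the cell cycle around Cdkn2a, a locus that HMGA2 is known to hold down in mouse neural stem cells, were mixed. Cdkn2a was at 116.4 ± 8.90 CPM (SD, n = 5) in control and 109.9 ± 9.26 (SD, n = 4) in F7 and was not called (log2 fold change -0.09, edgeR adjusted p = 0.375). Of 8 genes tested, 1 was called higher and 3 lower, or 50% against 35.3% over all tested genes. The gene called higher was Cdkn1a, the p21 inhibitor, at 0.82 (SE 0.20, edgeR adjusted p = 0.011). Cdkn2c fell by 1.04 on the log2 scale (SE 0.10, edgeR adjusted p = 5.8e-06), the AP-1 factor Jund by 0.57 (SE 0.07, edgeR adjusted p = 2.51e-05) and Cdkn1b by 0.68 (SE 0.14, edgeR adjusted p = 0.00321). Cdkn1a and Cdkn1b lost their calls in F7 replicates 3 and 4 by themselves (edgeR adjusted p = 0.144 and 0.0648).

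**Figure D5:**
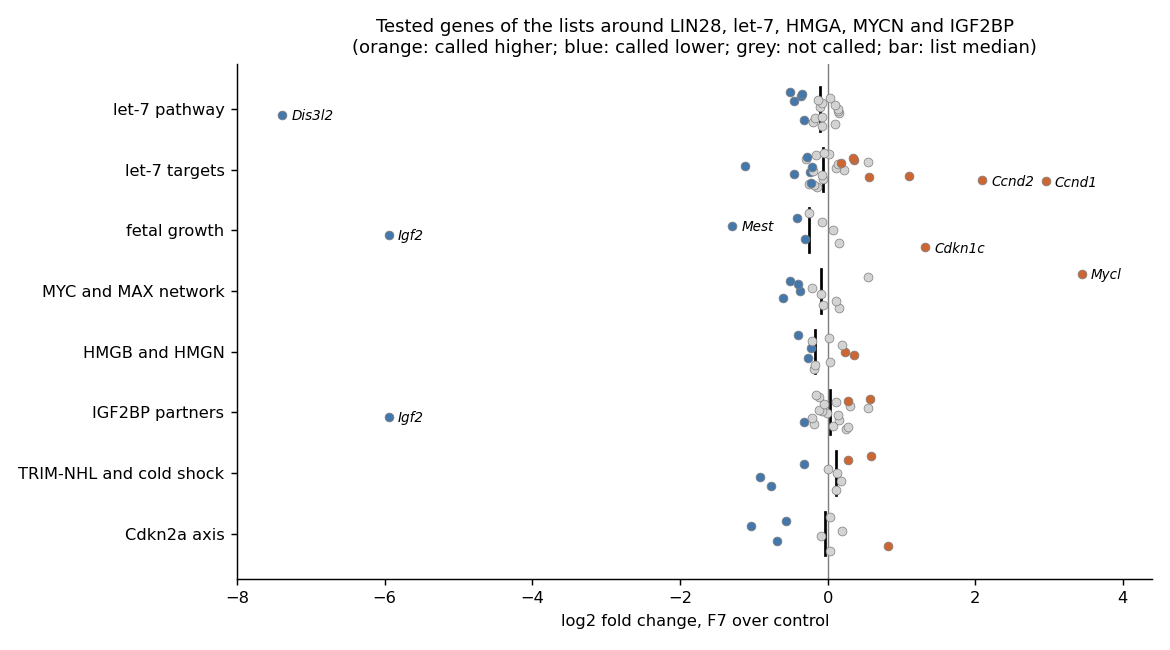
Log2 fold change of F7 over control (x axis) for each tested gene of 8 lists, with genes called higher in orange, called lower in blue and not called in grey, and the list median as a bar. The list medians lie near 0, between -0.25 and 0.11, with single genes far out: Dis3l2 (a fitted value that depends on the prior count, since F7 had no read), Igf2 and Mycl.

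The genes most like Igf2bp2 and Hmga2 over the 9 libraries, by Pearson's r of log2 CPM, differed in how they treated the F7 pairs. For Igf2bp2 they were Fmnl1, a formin (r = 0.99), Spns3 (0.98), Gnas, the stimulatory G-protein subunit (0.98), H2-M3 (0.98) and Fam64a (0.98). Their F7 levels were close together, as for Fmnl1 at 4.89, 5.48, 5.37 and 4.12 CPM. For Hmga2 they were Ppfia3, a liprin (0.95), Carm1, an arginine methyltransferase (0.94), Tmem8 (0.94), Adrm1 (0.94) and Klc1 (0.94). These were higher in F7 replicates 1 and 2 than in 3 and 4, as for Klc1 at 142.8, 135.5, 117.1 and 111.5 CPM. Because these genes were picked by likeness over the same libraries, their pattern over the F7 pairs follows from the choice. The libraries also share the group difference, so these values are descriptions only.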

How the data were processed

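RNA of 9 mK4 libraries was sequenced, with groups and replicate numbers taken from the sample titles. Per the submitters' processing notes, featureCounts, DESeq2 1.18.1 and R 3.4.3 were used with mm10. The aligner, the annotation and whether counting used strand were not given in the sources. Raw counts per gene, as the authors deposited them, were the input of every test. The authors' deposited comparison holds log2 fold changes with adjusted p-values and is quoted only by name. A further F7 column of the counts (1 in all) matched no sample and was not used.

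Counts were tested with edgeR 4.0.16 in R 4.3.3 (quasi-likelihood, robust, TMM factors, group as the only term). Genes were kept by filterByExpr (minimum count 10, minimum total 15), which left 14730, and p-values were adjusted by Benjamini-Hochberg over them. The SE was derived from the fold change and its F statistic. CPM use the library total times the TMM factor. Levels per kb use the longest coding transcript of GENCODE M21, which matched 91.6% of symbols. Ratios of summed reads carry a 95% exact binomial interval, floors are 3 counts, and both cover counting error only. The test was checked on simulated counts.

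Named genes were the 9 genes, the 3 most significant called genes of each list, the 5 genes most like Igf2bp2 and like Hmga2, and Foxd2; all other genes, hairpin and host rows included, were chosen after their values were seen. The members and lists were chosen with earlier results of these data known. Alternatives comprised DESeq2 1.42.0, limma voom (3.58.1), RLE or upper-quartile factors, no low-count filter, 1 CPM in 4 libraries, a replicate block, leaving out each library or parts of either group, an adjusted p under 0.01 and the authors' table. A row of the table is not reported here.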

Additional observations from a re-analysis of the deposited data

Results flagged for a closer look

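Of 22 groups of library values examined, 4 held 1 library far from the rest, and chance sets apart about 1 in 20 groups. Igf2bp3 was at 0.876 CPM in F7 replicate 1, where the other F7 libraries lay between 0.458 and 0.513; without that library its log2 fold change was -1.10 and still not called (edgeR adjusted p = 0.0926). The other 3 were single reads in groups otherwise at 0: Lin28b at 0.0739 CPM in control replicate 2, Lin28b at 0.0856 CPM in F7 replicate 2 and Trim71 at 0.073 CPM in F7 replicate 1. A lone read is always set apart in such a group, so the rate of 1 in 20 does not apply to these 3.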

How the results depend on the processing

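Hmga1 and Igf2bp2 kept their direction and their call under every alternative run. Igf2bp2, unlike Hmga1, entered the main test only through its F7 libraries, where it is high, so its calls were favoured by the filter. With F7 replicates 3 and 4 alone, Hmga2 was 0.41 and Mycn -0.98 and neither was called (edgeR adjusted p = 0.094 and 0.0921); the cause was not tested, and those libraries are also the shallowest. Igf2bp3 was called without control replicate 3 and, at -1.02 (edgeR adjusted p = 0.0327), without control replicates 3 and 5. Leaving out 1 library at a time gave 1.82 to 2.13 for Hmga1, 0.88 to 1.22 for Hmga2, 2.65 to 3.21 for Igf2bp2, -1.10 to -0.54 for Igf2bp3 and -1.45 to -1.15 for Mycn. The filter of 1 CPM in 4 libraries left no value for Igf2bp3. Calls over all genes were 5196; they were 2160 with F7 replicates 3 and 4 alone, against 4149 with replicates 1 and 2 alone, 2894 at an adjusted p under 0.01, and 3543 to 5872 leaving out 1 library.

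With the replicate block, 5149 genes were called, and the log2 fold changes were 2.04 for Hmga1, 0.99 for Hmga2, 2.68 for Igf2bp2, -1.28 for Mycn and -0.89 for Igf2bp3 (edgeR adjusted p = 0.0643), which changed no call. Same-numbered libraries deviated from their group means with correlations of -0.051, 0.066, 0.208 and -0.054. Differently numbered libraries ranged from -0.319 to 0.215, so these values show no pairing by number but cannot exclude one.

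Depth limits Lin28a, Lin28b, Trim71 and Igf2bp1, which had too few reads to be tested.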
